A study of Homo sapiens with 24 samples.

Results

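Toll-like receptors are membrane proteins that recognise microbial molecules, and the 10 human genes named TLR followed by a number alone, TLR1 to TLR10, were examined in 4 acute myeloid leukaemia (AML) cell lines. Each of them was represented by 1 named row among rows for 14884 genes, and all 10 were taken. Of the 10 genes 7 passed the filter on low signals described below and were tested among 10641 genes. TLR7, TLR8 and TLR10 did not pass it and are given by their levels. Messenger RNA was measured on 24 Affymetrix arrays, 3 for each of 8 groups. The treated groups were HL60, KG1a, MOLM14 and U937 cells given 10 mM metformin for 24 h, and the controls were untreated cells of the same lines. Metformin is a biguanide drug, given here, according to the study's design, to block complex I of the respiratory chain. The labels call KG1a and MOLM14 high, and U937 and HL60 low, in oxidative phosphorylation (OXPHOS), while a further label moves metformin-treated KG1a and MOLM14 to the low state. The stated aim was a gene signature of high OXPHOS function. Each line is a single culture-adapted leukaemia, and the labels name no stimulus of these receptors, so the values describe cells to which no receptor ligand is stated to have been added.

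TLR4 binds bacterial lipopolysaccharide together with MD-2 (LY96), helped by the surface protein CD14. It signals through the adaptor pairs TIRAP with MYD88 and TICAM2 with TICAM1 to NF-κB and to interferon regulatory factors. TLR2 pairs with TLR1 or TLR6 to bind bacterial lipoproteins, TLR5 binds flagellin at the cell surface, and TLR3, TLR7, TLR8 and TLR9 read nucleic acids inside endosomes. In the blood, TLR4 and TLR2 are known from monocytes, macrophages and neutrophils, the mature cells of the myeloid lineage from which AML arises.

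The 250 bases before the annotated start of TLR4, TLR6 and TLR2, the 3 receptor genes that changed with metformin within a line, are shown because they lie where transcription factors of the myeloid lineage could bind. The sequences are those of RefSeq for GRCh38.p14, read 5′ to 3′ on the strand of the gene, for TLR4 at chr9:117704153-117704402 on the plus strand, TLR6 at chr4:38856818-38857067 on the minus strand and TLR2 at chr4:153684030-153684279 on the plus strand. Capitals mark GAGGAA on either strand, which holds the core that factors of the ETS family such as PU.1 (gene SPI1) are known to bind.
TLR4: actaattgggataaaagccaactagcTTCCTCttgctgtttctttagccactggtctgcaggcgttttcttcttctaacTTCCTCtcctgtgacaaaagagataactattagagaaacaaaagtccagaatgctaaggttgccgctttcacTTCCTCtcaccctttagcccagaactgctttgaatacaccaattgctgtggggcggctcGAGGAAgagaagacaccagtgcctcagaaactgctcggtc
TLR6: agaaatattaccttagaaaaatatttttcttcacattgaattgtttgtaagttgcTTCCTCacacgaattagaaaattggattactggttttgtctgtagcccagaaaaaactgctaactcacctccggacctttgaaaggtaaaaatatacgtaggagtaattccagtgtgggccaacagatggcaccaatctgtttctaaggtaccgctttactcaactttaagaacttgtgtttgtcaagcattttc
TLR2: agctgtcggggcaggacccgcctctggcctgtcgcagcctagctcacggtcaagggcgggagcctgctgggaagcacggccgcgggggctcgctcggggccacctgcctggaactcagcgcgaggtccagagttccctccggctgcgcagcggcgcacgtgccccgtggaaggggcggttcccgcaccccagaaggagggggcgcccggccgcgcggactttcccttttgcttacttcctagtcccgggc
The TLR4 stretch held 4 matches, starting 224, 171, 99 and 40 bases before the gene's start. The TLR6 stretch held 1, starting 195 bases before it, and the TLR2 stretch held 0. These counts are for the whole of GAGGAA. The shorter GGAA within it was not counted, and the TLR2 stretch as printed holds GGAA, so 0 does not mean that the core is absent there. Of 35116 promoter stretches of this length in the table, 23.6% held at least 1 match and 0.0513%, that is 18, held at least 4. Of the 7 receptor genes whose sequence was given, 3 held a match. The motif was chosen after the sequences were seen, the matches were counted on both strands, and a match describes the letters and is no evidence of binding.

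The values are normalized signals on a log2 scale, so a difference of 1 is a 2-fold change. The median of all rows was 4.02, and a gene was tested where at least 1 group mean reached it. Signals below that level lie near the lower end of the scale, where differences can be compressed. Array medians lay between 3.99 and 4.08, interquartile ranges between 1.90 and 2.31, and correlations between arrays of a group between 0.989 and 0.996. HL60 control C and U937 control C had the narrowest ranges, and U937 metformin A correlated least with its group. Results that leave out these 3 arrays are given only where they differ. Whether the 3 arrays of a group stem from independent cultures is not stated, and p-values then cover only how far these arrays vary, which may be technical. Among lineage markers, CD34 averaged 11.3 in metformin-treated KG1a and 11.2 in untreated KG1a and lay under 4.02 in the other lines. MPO, the myeloperoxidase of promyelocyte granules, averaged 12.5 in both HL60 groups, 8.93 in untreated MOLM14 and 3.30 in untreated U937. The other granule markers measured went the other way. PRTN3 averaged 11.4 in untreated HL60, 12.3 in untreated MOLM14 and 11.8 in untreated U937. In the same order AZU1 averaged 6.97, 10.1 and 8.70 and CTSG 9.81, 11.3 and 10.4. The monocyte marker CD14, also a coreceptor of TLR4, lay between 3.44 and 3.72 in all 8 groups, under 4.02, although U937 and MOLM14 are known as monocytic lines. Lysozyme (LYZ), another monocyte gene, averaged 9.75 in metformin-treated and 9.88 in untreated MOLM14 and 9.40 and 9.43 in the same order in U937. In HL60 LYZ averaged 6.77 with metformin and 7.26 without. Of 9 monocyte markers on the array, 6 had a group mean of at least 4.02 in both MOLM14 and both U937 groups. The number was 5 in both HL60 groups and 3 in both KG1a groups.

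TLR4 separated the lines into those with a low and those with a high level. In untreated cells it measured 3.33, 3.42 and 3.67 in KG1a and 3.87, 3.73 and 3.88 in MOLM14, against 6.95, 7.23 and 6.84 in HL60 and 7.38, 7.69 and 7.28 in U937. All 6 KG1a and MOLM14 arrays lay under 4.02 and all 6 HL60 and U937 arrays lay at least as high as 6.84, so the sets did not overlap. The mean of the high OXPHOS lines minus that of the low OXPHOS lines was -3.57 ± 0.09 (log2, SE), or 11.9-fold lower in KG1a and MOLM14, with an adjusted p of 2.27e-21 in limma's moderated test (Benjamini-Hochberg over all genes tested). Of the 7 receptor genes 5 passed in this comparison, as did 61.9% of all genes. With 2 lines in each class, OXPHOS class and cell line cannot be told apart. These are bulk samples, in which fewer cells with a transcript and less RNA per cell cannot be told apart.

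Over all 8 groups the order of TLR4 means was U937 control (7.45 ± 0.21), HL60 control (7.00 ± 0.20), U937 metformin (6.94 ± 0.05), HL60 metformin (6.38 ± 0.17), MOLM14 metformin (3.83 ± 0.11), MOLM14 control (3.83 ± 0.08), KG1a control (3.47 ± 0.17) and KG1a metformin (3.43 ± 0.18; SD, n = 3 each). The arrays of HL60 control and U937 metformin, neighbours in this order, overlapped. So did those of treated and untreated MOLM14 and those of treated and untreated KG1a. Untreated HL60 lay below untreated U937 by -0.45 ± 0.12 (limma adjusted p = 0.00279), and untreated KG1a below untreated MOLM14 by -0.35 ± 0.12 (limma adjusted p = 0.0137). The KG1a and MOLM14 values were both in the compressed range, and that call was lost without KG1a control A (adjusted p = 0.0757 in limma). TLR4 passed in all 6 pairs of untreated lines, where between 55.7% and 61.9% of all genes passed.

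With metformin TLR4 fell in the 2 lines where its signal exceeded 4.02. In HL60 the arrays read 6.47, 6.49 and 6.19 with metformin and 6.95, 7.23 and 6.84 without. Each treated array was below each untreated one. The change was -0.62 ± 0.12 (95% interval -0.87 to -0.37), or 1.54-fold lower, with a limma adjusted p of 0.000487. In U937 the arrays read 6.90, 6.92 and 7.00 with metformin and 7.38, 7.69 and 7.28 without. Again no arrays overlapped, and TLR4 fell by 0.51 ± 0.12 (SE) on the log2 scale, 1.42-fold, with a limma adjusted p of 0.00507.

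In the lines of low TLR4 no change passed. The MOLM14 arrays read 3.86, 3.92 and 3.71 with metformin and 3.87, 3.73 and 3.88 without, and those of KG1a 3.61, 3.25 and 3.43 with metformin and 3.33, 3.42 and 3.67 without. The groups overlapped in both lines. The change was 0.0015 in MOLM14 (95% interval -0.25 to 0.25) and -0.045 in KG1a (95% interval -0.29 to 0.20), on signals in the compressed range. Averaged over the 4 lines, 12 treated against 12 untreated arrays, TLR4 fell by 0.29 ± 0.06 (limma adjusted p = 0.000572). Its mean was lower with metformin in 3 of 4 lines, of which HL60 and U937 passed and KG1a did not.

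The difference of the TLR4 response between the lines was itself tested. A moderated F test over the differences between the 4 within-line changes passed (limma adjusted p = 0.0242), as it did for 3 of the 7 receptor genes and 10% of all genes. This call was lost without HL60 metformin C (adjusted p = 0.0535, limma) and without HL60 control B (adjusted p = 0.0501, limma). The change in KG1a and MOLM14 minus that in HL60 and U937 was 0.54 ± 0.12 (limma adjusted p = 0.00682), a comparison in which 1 of the 7 receptor genes and 6.69% of all genes passed. By pairs, the change in HL60 minus that in KG1a was -0.58 ± 0.17 (limma adjusted p = 0.0363) and that in HL60 minus that in MOLM14 -0.62 ± 0.17 (limma adjusted p = 0.0341). For U937 the pairs did not pass, with 0.46 ± 0.17 for the change in KG1a minus that in U937 (limma adjusted p = 0.177) and 0.51 ± 0.17 for that in MOLM14 minus that in U937 (limma adjusted p = 0.127). Of the 32 alternative settings, 25 kept the call for HL60 minus KG1a and 24 that for HL60 minus MOLM14. Both calls were lost with each array centred on its median. The other settings that lost them each left out 1 array of the lines compared. A gene already near the lower end of the scale has little room for a measured fall, and the part of this in the difference was not tested.

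**Figure D1:**
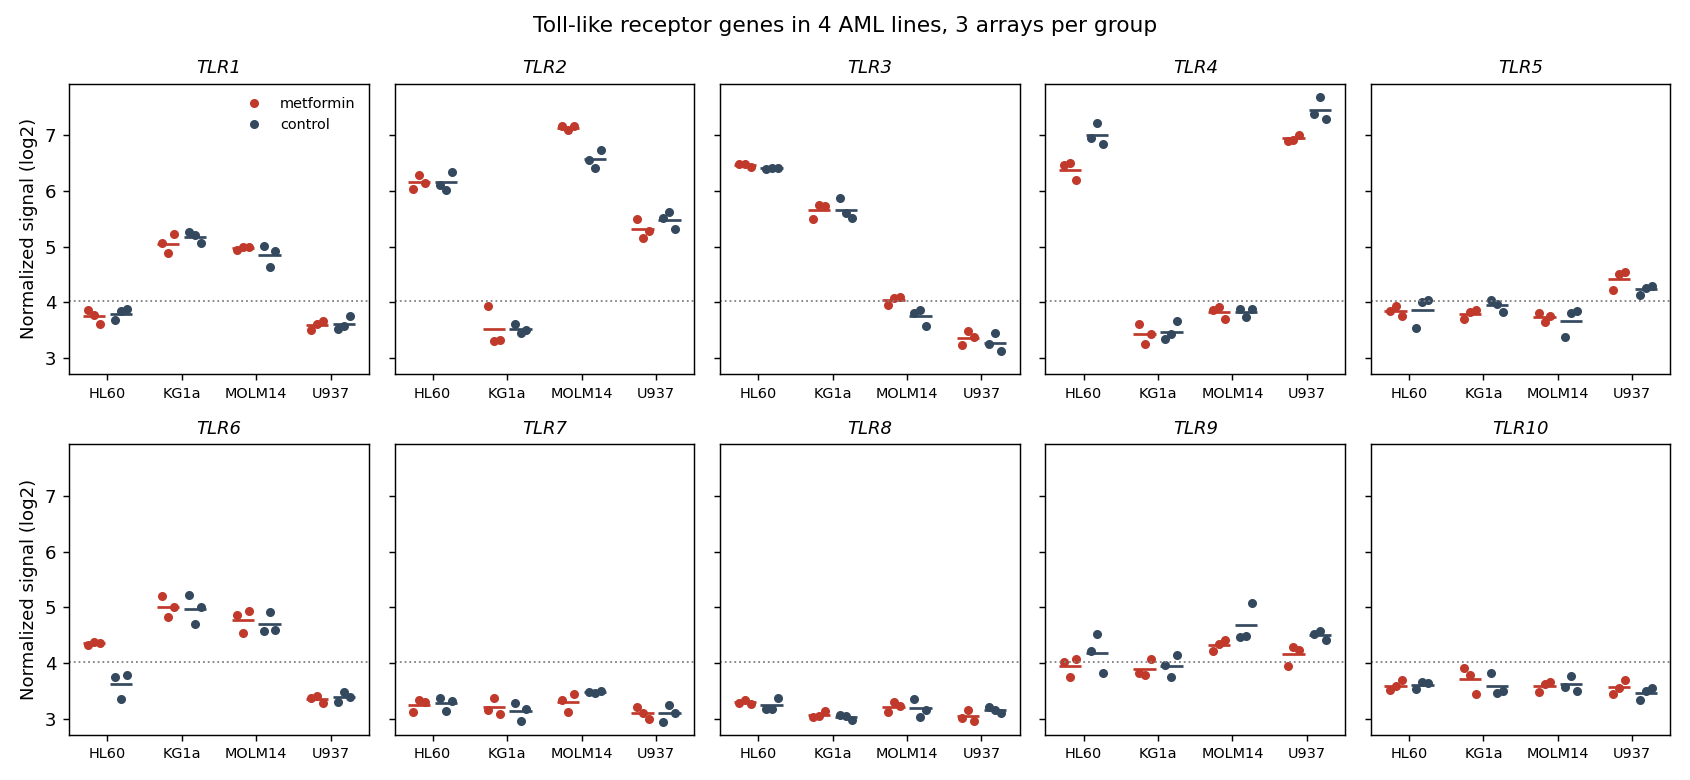
Normalized signal (log2, y axis) of the 10 Toll-like receptor genes in the 4 lines, with metformin (red, left) and control (dark, right); points are single arrays, bars are means of 3 and the dotted line is the median of all rows, 4.02. TLR4 lies above 6 in HL60 and U937 and below 4 in KG1a and MOLM14, and TLR7, TLR8 and TLR10 lie under the line in all groups.

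TLR2, the common partner in lipoprotein recognition, had another order of lines. Untreated, it measured 6.56, 6.42 and 6.74 in MOLM14, 6.11, 6.02 and 6.34 in HL60, 5.52, 5.62 and 5.32 in U937 and 3.61, 3.45 and 3.51 in KG1a. The arrays of the 4 lines did not overlap, and KG1a lay in the compressed range. The untreated class difference, high minus low OXPHOS lines, was -0.77 ± 0.10 (limma adjusted p = 1.38e-07), although MOLM14 was the highest line. With metformin the MOLM14 arrays read 7.16, 7.09 and 7.16, all above the controls, a rise of 0.57 ± 0.13 (SE) or 1.48-fold (limma adjusted p = 0.0125). The call was lost without MOLM14 control B, where the change was 0.49 and the limma adjusted p 0.0826.

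TLR2 did not pass in the other lines. The metformin arrays read 6.04, 6.29 and 6.15 in HL60, 5.50, 5.16 and 5.27 in U937 and 3.93, 3.31 and 3.32 in KG1a, each set overlapping its controls. The changes were 0.0045 in HL60, -0.17 in U937 and -0.0053 in KG1a. The F test for a different response between lines gave a limma adjusted p of 0.0454. This passed in 10 of the 24 fits that left out 1 array, with adjusted p between 0.00412 and 0.138 in limma, and it was lost with no filter on low signals (adjusted p = 0.0565, limma). In MOLM14, where TLR2 rose, 3 of the 6 tested monocyte markers fell and 0 rose. Of all genes 2.57% fell and 2.48% rose there. CSF1R, the receptor for macrophage colony-stimulating factor, fell by 0.66 ± 0.11, MNDA, a nuclear antigen of myeloid cells, by 1.22 ± 0.10, and S100A8, a subunit of calprotectin, by 0.65 ± 0.11. The mean over the 9 measured monocyte markers ranged from 4.94 to 5.04 in metformin-treated and from 5.31 to 5.40 in untreated MOLM14. Of the 4 promyelocyte granule markers MPO fell by 1.32 ± 0.090 in MOLM14 and PRTN3 by 0.26 ± 0.073. The part of these markers in the result was not tested.

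TLR6, which pairs with TLR2 for diacylated lipoproteins, rose in HL60. It measured 4.33, 4.38 and 4.36 there with metformin and 3.75, 3.36 and 3.79 without. The groups did not overlap, and the controls lay under 4.02, so the size of the rise may be compressed. The change was 0.73 ± 0.13 (SE), or 1.66-fold, with a limma adjusted p of 0.000238. The arrays read 5.20, 4.83 and 5.01 in metformin-treated and 5.21, 4.71 and 5.01 in untreated KG1a, and 4.86, 4.54 and 4.93 in metformin-treated and 4.57, 4.92 and 4.60 in untreated MOLM14. In U937 they read 3.37, 3.41 and 3.29 with metformin and 3.30, 3.49 and 3.39 without. Treated and untreated arrays overlapped in these 3 lines, and the changes were 0.036 for KG1a, 0.082 for MOLM14 and -0.039 for U937. The F test for a different response passed (limma adjusted p = 0.0210), and the HL60 change exceeded that of U937 by 0.77 ± 0.19, of KG1a by 0.69 ± 0.19 and of MOLM14 by 0.65 ± 0.19 (limma adjusted p between 0.0180 and 0.0456). The call for HL60 minus MOLM14 held in 18 of 32 alternative settings (adjusted p up to 0.138 in limma), that for HL60 minus KG1a in 29 and that for HL60 minus U937 in 30. The F test no longer passed without HL60 metformin B (adjusted p = 0.0565), metformin C (adjusted p = 0.0513) or control B (adjusted p = 0.0902, all limma). The mean over the 4 lines was 0.20 ± 0.07 (limma adjusted p = 0.0212).

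TLR1, the partner of TLR2 for triacylated lipoproteins, lies beside TLR6 on chromosome 4 and followed the same order of line classes. Untreated arrays read 5.25, 5.21 and 5.06 in KG1a and 5.01, 4.64 and 4.92 in MOLM14, against 3.68, 3.84 and 3.88 in HL60 and 3.53, 3.57 and 3.75 in U937. The high and low OXPHOS lines did not overlap, and HL60 and U937 were under 4.02. The class difference was 1.31 ± 0.07 for TLR1 (limma adjusted p = 5.75e-14) and 1.33 ± 0.09 for TLR6 (limma adjusted p = 5.52e-12). TLR1 did not pass for metformin in any line, with arrays of 3.86, 3.78 and 3.61 in HL60, 5.06, 4.88 and 5.22 in KG1a, 4.94, 5.00 and 4.99 in MOLM14 and 3.50, 3.61 and 3.67 in U937. Each set overlapped its controls, and the largest change was -0.12 ± 0.10 in KG1a.

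TLR3, the endosomal receptor for double-stranded RNA, split the lines in a way that crossed the OXPHOS classes. Untreated arrays read 6.40, 6.41 and 6.41 in HL60 and 5.87, 5.61 and 5.52 in KG1a, against 3.81, 3.87 and 3.58 in MOLM14 and 3.25, 3.45 and 3.13 in U937. The 4 lines did not overlap, while the class difference of -0.13 ± 0.07 did not pass (limma adjusted p = 0.117). With metformin the MOLM14 arrays read 3.95, 4.08 and 4.09, all above the controls, but the change of 0.29 ± 0.10 did not pass (limma adjusted p = 0.108). The HL60 arrays with metformin, at 6.49, 6.48 and 6.42, also lay above their controls, by only 0.061 ± 0.10 on average, and did not pass. The changes were -0.011 in KG1a and 0.086 in U937, with overlapping arrays, from treated values between 5.49 and 5.75 in KG1a and between 3.23 and 3.49 in U937.

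TLR9, the endosomal receptor for unmethylated CpG DNA, was lower with metformin on the mean of 4 lines and in the mean of each line, without passing in any. In U937 it read 3.95, 4.29 and 4.23 with metformin and 4.52, 4.58 and 4.42 without. In MOLM14 it read 4.22, 4.34 and 4.42 with metformin and 4.48, 4.48 and 5.08 without. Treated and untreated arrays did not overlap in these 2 lines, and control C was the highest MOLM14 array. The changes were -0.35 ± 0.16 in U937 (limma adjusted p = 0.143) and -0.35 ± 0.16 in MOLM14 (limma adjusted p = 0.241). In HL60 the arrays read 4.01, 3.75 and 4.08 with metformin and 4.21, 4.52 and 3.83 without, and in KG1a 3.82, 3.79 and 4.07 with metformin and 3.97, 3.75 and 4.15 without. They overlapped in both lines, with changes of -0.24 ± 0.16 in HL60 and -0.062 ± 0.16 in KG1a. The mean change of -0.25 ± 0.08 passed (limma adjusted p = 0.0175), and a difference between the lines was not found (F test, limma adjusted p = 0.714). Both KG1a groups and metformin-treated HL60 averaged under 4.02, in the compressed range. The KG1a change turned to 0.034 without KG1a control C.

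TLR5, the flagellin receptor, reached 4.02 on average in U937 alone. It read 4.22, 4.51 and 4.55 there with metformin and 4.14, 4.26 and 4.30 without, overlapping sets with a change of 0.19 ± 0.13 that did not pass. The other 18 arrays lay between 3.37 and 4.05, with changes of -0.016 in HL60, -0.16 in KG1a and 0.069 in MOLM14. Untreated, the class difference was -0.23 ± 0.09 (limma adjusted p = 0.0246). That call was lost in a fit of the compared arrays alone (adjusted p = 0.0537, limma) and without the 3 arrays that stand apart (adjusted p = 0.107, limma). It was also lost without HL60 control B, HL60 control C, KG1a control C, MOLM14 control A or U937 control C, each left out alone, with a limma adjusted p of at most 0.105.

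The other nucleic acid receptors TLR7 and TLR8, which read single-stranded RNA, and TLR10, a member of the TLR1 family, lay under 4.02 in all 8 groups. Their group means spanned 3.10 to 3.48 for TLR7, 3.04 to 3.30 for TLR8 and 3.46 to 3.72 for TLR10. With no filter, none of the 3 passed for metformin in any of the 4 lines (smallest unadjusted p 0.0952, for TLR7 in MOLM14, smallest limma adjusted p 0.481 over 14884 genes).

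Counted by line, metformin changed 2 of the 7 tested receptor genes in HL60, where 25.1% of all genes passed, and 1 in U937, where 17.2% did. In MOLM14 it changed 1 of 7 against 5.06% of all genes, and in KG1a 0 of 7 against 2.49%. No receptor gene in KG1a had an unadjusted p under 0.05 in limma. On the mean of 4 lines 3 of 7 passed against 32.3% of all genes. With so few genes these shares cannot be set apart from those of all genes. Arrays of treated and untreated cells did not overlap for 3 of 7 genes in HL60 (37.2% of all genes), 0 in KG1a (21%), 3 in MOLM14 (26.4%) and 2 in U937 (29.9%). Untreated, all 7 genes differed between the lines in a moderated F test, as did 83.2% of all genes.

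**Figure D2:**
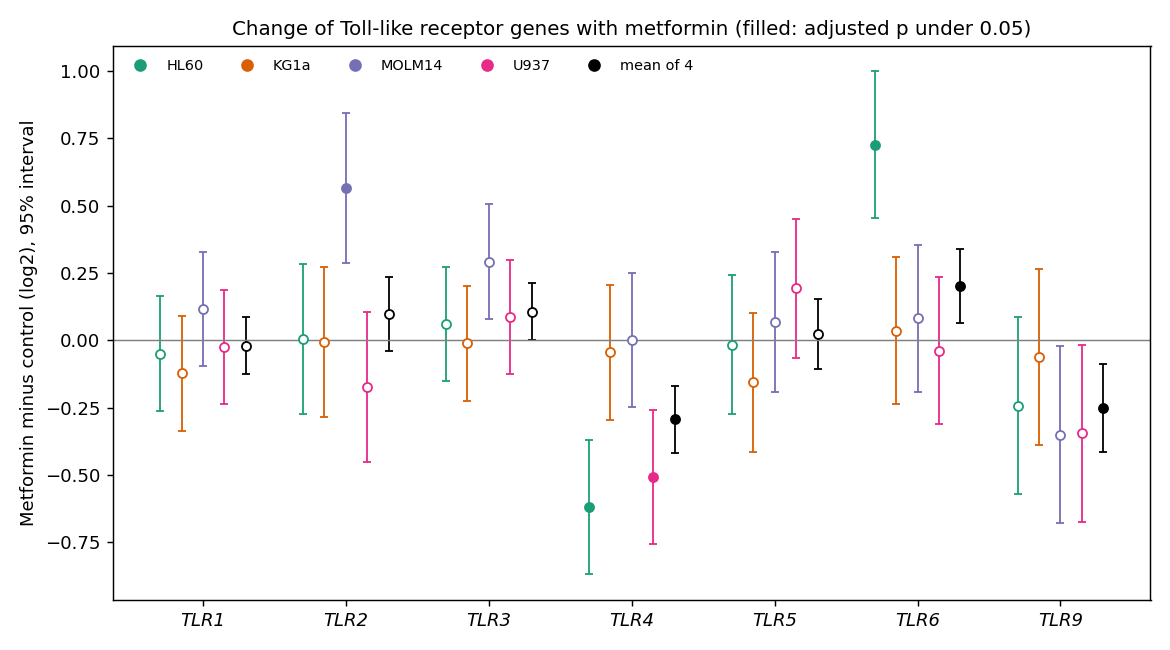
Change with metformin (log2, y axis, point with 95% interval) of the 7 tested receptor genes in each line and on the mean of 4 lines; filled points passed an adjusted p of 0.05. TLR4 fell by 0.62 in HL60 and by 0.51 in U937, TLR6 rose by 0.73 in HL60 and TLR2 rose by 0.57 in MOLM14.

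The other genes of the pathway were taken from 8 lists, which hold 108 genes, of which 80 were on the array and 70 were tested. In HL60 16 rose (22.9%, against 15.5% of all genes) and 6 fell (8.57%, against 9.56%). In U937 6 rose (8.57%, against 7.46%) and 13 fell (18.6%, against 9.74%). In MOLM14 1 rose (1.43%, against 2.48%) and 3 fell (4.29%, against 2.57%), and in KG1a 3 rose (4.29%, against 0.818%) and 1 fell (1.43%, against 1.67%). The lists were not tested against other genes, and these shares of all genes also stand beside the counts per list below. Up to 3 genes of each list are named, those with the smallest p of a joint test of the 4 within-line changes, and genes named beyond these were chosen after their values were seen.

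Among coreceptors and chaperones (10 tested), 2 rose and 1 fell in HL60, 2 rose in KG1a, 1 fell in MOLM14, and 1 rose and 2 fell in U937, with medians between -0.012 and 0.011 in the lines, against -0.022 to 0.0037 for all genes. CD180, a relative of TLR4 that acts with LY86, averaged 5.90 in metformin-treated and 6.62 in untreated U937, a fall of 0.72 ± 0.12 (limma adjusted p = 0.000303). It was at 7.07 with metformin and 6.94 without in MOLM14, which did not pass, and below 4.02 in HL60 and KG1a. CD36, a scavenger receptor that presents lipids to TLR2 with TLR6, fell by 0.55 ± 0.09 in MOLM14 and by 0.45 ± 0.09 in U937. CTSS, a lysosomal protease of endosomal receptor processing, rose by 0.54 ± 0.11 in KG1a, 0.52 ± 0.11 in HL60 and 0.31 ± 0.11 in U937. LY96 (MD-2), which TLR4 needs to bind lipopolysaccharide, rose by 0.65 ± 0.13 in KG1a (6.00 with metformin and 5.35 without) and by 0.43 ± 0.13 in HL60 (4.37 with metformin and 3.95 without). Thus LY96 rose in HL60 while TLR4 fell there. UNC93B1, the chaperone of endosomal receptors, fell in HL60 by 0.46 ± 0.10.

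Of 3 tested adaptors 1 fell in HL60 and 1 in U937, and 0 passed in KG1a and MOLM14. MYD88, the adaptor shared by most of these receptors, fell in HL60 by 0.36 ± 0.12 (limma adjusted p = 0.0264). TIRAP, which brings MYD88 to TLR4 and TLR2, fell in U937 by 0.47 ± 0.12 (limma adjusted p = 0.00882). TICAM1 (TRIF), the adaptor of TLR3 and of the second TLR4 arm, changed by between -0.17 and 0.23 in the lines and did not pass. On the mean of 4 lines MYD88 (-0.16 ± 0.06) and TIRAP (-0.25 ± 0.06) fell.

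Of 13 kinases and ubiquitin ligases, 5 rose and 1 fell in HL60, 3 rose in U937, 1 rose in KG1a and 0 passed in MOLM14. PELI1 and PELI2, ligases that act on IRAK kinases, rose in HL60 by 0.51 ± 0.11 and 0.61 ± 0.09, and PELI2 also in U937 by 0.28 ± 0.09. IRAK2, a kinase-like member of the MYD88 complex, rose by 0.34 ± 0.09 in KG1a and 0.32 ± 0.09 in U937. IRAK1, a kinase of the same complex, fell in HL60 by 0.31 ± 0.09. The median change of the list was 0.15 in HL60, against -0.00019 for all genes.

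Of 12 transcription factors, 1 rose and 2 fell in HL60, 4 fell in U937, and 0 passed in KG1a and MOLM14. JUN, a subunit of AP-1, moved in opposite directions, at 5.98 in metformin-treated and 5.30 in untreated HL60 (0.69 ± 0.14, limma adjusted p = 0.000551) and at 5.15 in metformin-treated and 5.99 in untreated U937 (-0.84 ± 0.14, limma adjusted p = 0.000151). RELB, an NF-κB subunit, fell in HL60 by 0.26 ± 0.08 and in U937 by 0.29 ± 0.08. IRF8, a factor of monocyte development, fell in U937 by 0.36 ± 0.10. SPI1, the gene of the ETS family factor PU.1 named above, fell in HL60 by 0.34 ± 0.11 (7.18 with metformin and 7.52 without). It averaged 7.47 in metformin-treated and 7.58 in untreated U937, 8.10 in metformin-treated and 7.94 in untreated MOLM14, and 4.42 in metformin-treated and 4.65 in untreated KG1a.

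Of 10 negative regulators, 3 rose in HL60, 1 rose in U937, 1 fell in MOLM14 and 0 passed in KG1a. ATF3, a repressor of cytokine genes that is also part of the amino acid stress response, rose in HL60 by 0.96 ± 0.12 (limma adjusted p = 1.96e-06). CYLD, a deubiquitinase that restrains NF-κB, rose by 0.47 ± 0.09 in both HL60 and U937. SOCS1, a suppressor of cytokine signalling, fell in MOLM14 by 0.59 ± 0.09. IRAK3 (IRAK-M), an inhibitor of the IRAK complex, rose in HL60 by 0.30 ± 0.08 and on the mean of 4 lines by 0.21 ± 0.04.

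Of 10 tested genes that these receptors are known to induce, 3 fell in U937, 1 in HL60 and 1 in MOLM14, and 0 rose in any line. CXCL8 (interleukin 8), which attracts neutrophils, averaged 4.78 in metformin-treated and 6.44 in untreated U937, against 6.44 in metformin-treated and 6.20 in untreated HL60. The fall in U937 was -1.66 ± 0.15 and the HL60 change of 0.24 ± 0.15 did not pass. TNF, the tumour necrosis factor gene, fell by 0.94 ± 0.10 in HL60 and by 0.76 ± 0.10 in U937. In MOLM14 TNF averaged 8.67 with metformin and 8.61 without and did not pass. A link between TNF and TLR4 was not tested. CCL2, a monocyte chemokine, averaged 9.67 in metformin-treated and 10.7 in untreated U937, a fall of 1.03 ± 0.16, and lay under 4.02 in the other lines. IL1RN, the interleukin 1 receptor antagonist, fell in MOLM14 by 0.42 ± 0.09.

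Receptors of the interleukin 1 family share the intracellular TIR domain with the Toll-like receptors. Of 4 tested, 3 rose in HL60, 1 fell in KG1a, 1 fell in U937 and 0 passed in MOLM14. IL1RAP, the shared accessory chain, rose in HL60 by 0.45 ± 0.10. IL18RAP, the accessory chain of the interleukin 18 receptor, rose in HL60 by 0.42 ± 0.12 and fell in U937 by 0.42 ± 0.12. IL1RL1, the interleukin 33 receptor, fell in KG1a by 0.54 ± 0.10. Of 8 tested pattern receptors of other families, 2 rose in HL60, 1 rose in MOLM14, 1 rose and 2 fell in U937 and 0 passed in KG1a. IFIH1 (MDA5), a cytosolic sensor of double-stranded RNA, rose in MOLM14 by 0.63 ± 0.12, the line in which TLR3 changed by 0.29 without passing. RIGI (RIG-I), its relative, rose in HL60 by 0.31 ± 0.09 and in U937 by 0.32 ± 0.09. FPR2, a formyl peptide receptor, fell in U937 by 0.66 ± 0.11.

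**Figure D3:**
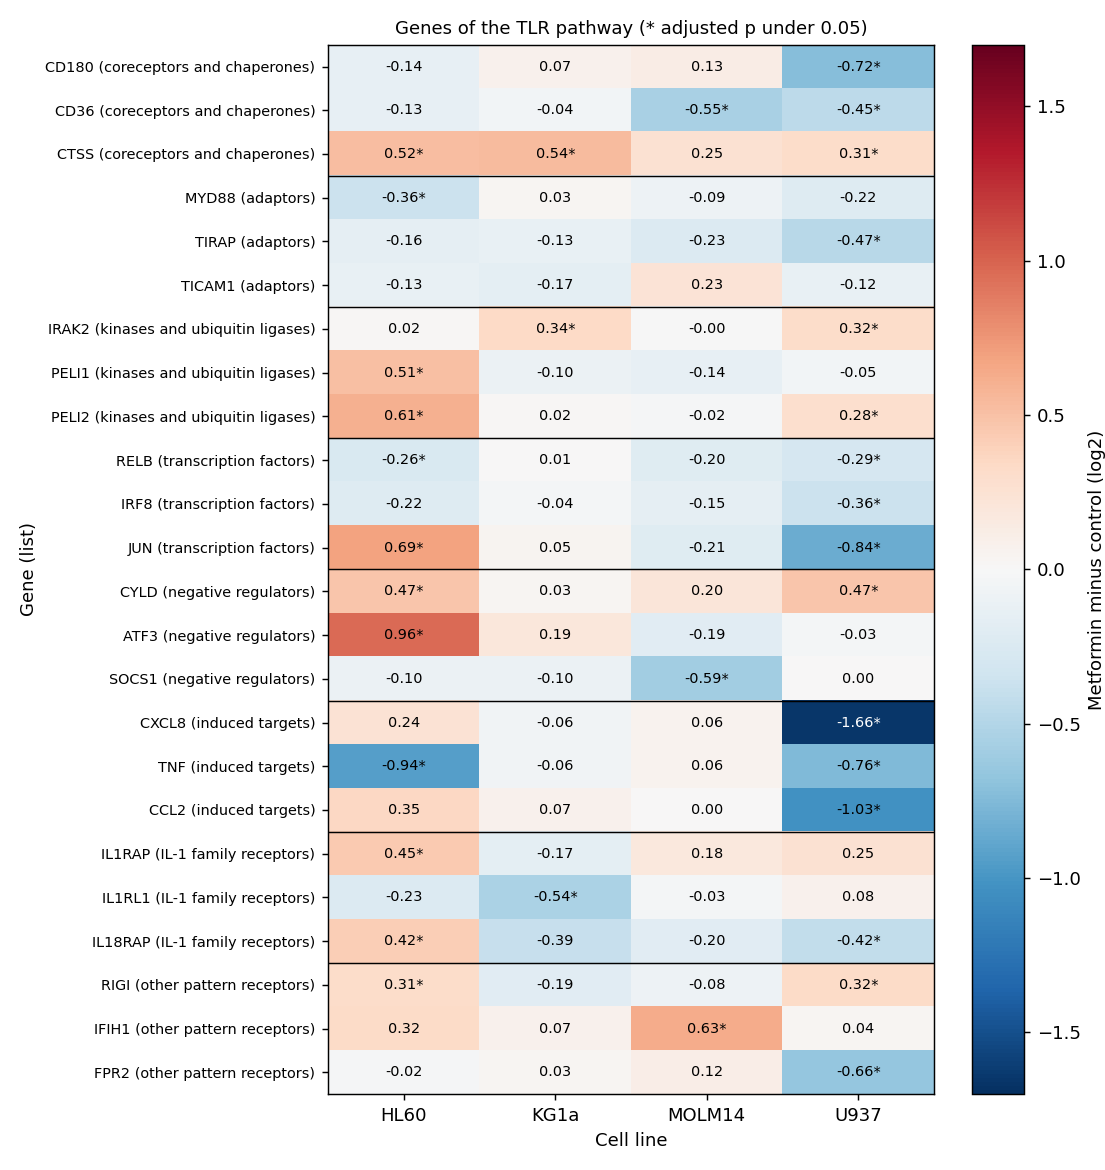
Change with metformin (log2, colour and printed value) of 24 named genes of the pathway in the 4 lines; an asterisk marks an adjusted p under 0.05. CXCL8 fell by 1.66 in U937 alone, TNF fell in HL60 and U937, and JUN rose by 0.69 in HL60 and fell by 0.84 in U937.

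Markers of cell types were set beside the TLR4 change. Of 12 listed monocyte markers 9 were on the array and 6 were tested. In HL60 2 of the 6 fell, where 9.56% of all genes fell, and 4 did not pass. LYZ fell by 0.48 ± 0.11 and MNDA by 0.64 ± 0.10, while CSF1R, for example, changed by 0.081 without passing. In U937 2 of the 6 fell, where 9.74% of all genes fell, and 4 did not pass. MNDA fell there by 0.36 ± 0.10 and S100A9 by 0.50 ± 0.14, while LYZ changed by -0.031 without passing. The mean of the 9 markers ranged from 4.25 to 4.32 in metformin-treated and from 4.46 to 4.56 in untreated HL60, and from 5.32 to 5.50 in metformin-treated and from 5.52 to 5.54 in untreated U937. CD14 and CD163, defining markers of monocytes and macrophages, were under 4.02 in all groups. In MOLM14 3 of the 6 fell, CSF1R, MNDA and S100A8 as given above, where 2.57% of all genes fell. TLR4 changed by 0.0015 there, and in KG1a 0 of the 6 markers passed. Of 4 promyelocyte granule markers, PRTN3, the gene of a protease in neutrophil granules, fell by 1.21 ± 0.073 in HL60 and by 0.38 ± 0.073 in U937. In HL60 AZU1, the azurocidin gene, also fell, by 0.27 ± 0.098, close to the threshold (limma adjusted p = 0.0498) and with overlapping arrays. CTSG, the cathepsin G gene, rose there by 0.35 ± 0.082. Of 4 tested stem and progenitor markers 1 fell in HL60, GATA2, a progenitor factor, by 0.65 ± 0.10. CD34, KIT and PROM1 did not pass there. PAX5, a B cell factor and the 1 of 4 listed B cell markers on the array, fell by 0.62 ± 0.11 in U937. The part of these markers in the TLR4 result was not tested.

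Over the 24 arrays the genes most like TLR4 by Pearson's r among 10640 others were ORAI2 (0.986), a calcium channel subunit, ENAH (0.983), an actin regulator, RALGPS2 (0.982), an exchange factor for Ral, TMEM63C (0.982), a membrane channel protein, and SPIRE1 (0.978), an actin nucleator. The points share 4 lines with 6 arrays each, so r reflects mainly which lines are high, and it is given as a description. All 5 were lower in KG1a and MOLM14 than in HL60 and U937. RALGPS2, for example, averaged 3.41 in metformin-treated and 3.50 in untreated KG1a and 3.51 in metformin-treated and 3.45 in untreated MOLM14, against 7.03 and 7.01 in HL60 and 7.35 and 7.25 in U937 in the same order. None of the 5 passed for metformin in any of the 4 lines. Their changes ranged from -0.19 to 0.14 in HL60 and from -0.23 to 0.10 in U937, against -0.62 and -0.51 for TLR4.

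**Figure D4:**
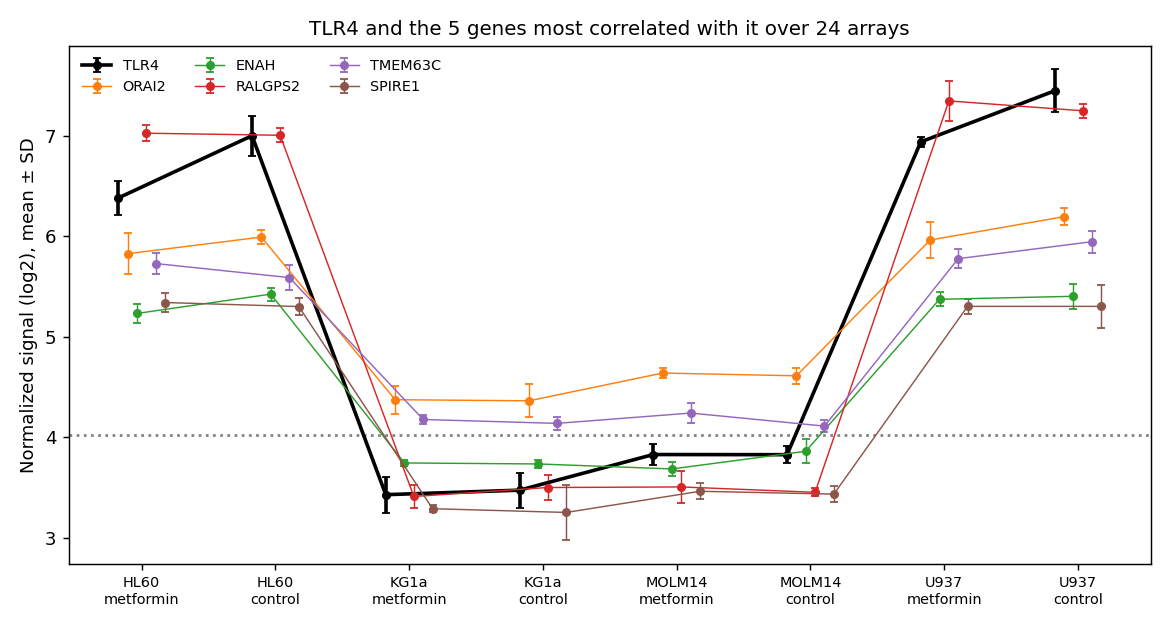
Group means ± SD (n = 3, log2 signal, y axis) of TLR4 (thick black line) and the 5 genes with the highest Pearson r with it, by line and treatment; the dotted line is the median of all rows. The 5 genes follow the high and low lines of TLR4, and TLR4 alone shows a step down with metformin in HL60 and U937 that passed.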

How the data were processed

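The authors deposited log2 signals that span 1.88 to 14.2. The log base was judged from this span, and how the arrays were normalized is not given in the sources used here. Per the labels' protocols, 250 ng of total RNA was labelled for each array. The submitters' processing notes name Partek. Of 53617 rows the platform annotation names 1 gene for 16098, and 37519 are unnamed here. Each gene was represented by its row of highest mean, and 10641 genes with a group mean of at least 4.02 were tested. A limma 3.58.1 model (R 4.3.3) held 8 group means (16 residual degrees of freedom) with Benjamini-Hochberg adjustment over all genes tested and a threshold of 0.05. The members, gene lists and naming rule were chosen with earlier results of these data known. Named genes were every Toll-like receptor gene, per list the 3 tested genes with the smallest p of an F test over the 4 within-line contrasts, and the 5 most correlated with TLR4. The calculations were tested on simulated data for the HL60 contrast with 10641 genes: 73 of 100 changes of 0.5 and 99 of 100 of 1 were recovered, and 6 of 10441 unchanged genes were called. No detection calls were used, so low signals were not told apart from background. The number of arrays limits the precision. Results were recomputed with quantile-normalized or centred arrays, other filters, rows and moderation, a replicate block, subsets of arrays and leaving out each array. The fit without 3 arrays together was added after seeing the data. At most 5 rows were identical in any pair of arrays, so none was taken as a duplicate. Promoter sequences are from RefSeq (GRCh38.p14). Plots were made in Python 3.11.15 with matplotlib 3.10.9.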

Additional observations from a re-analysis of the deposited data

Results flagged for a closer look

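The response to metformin differed between lines for 3 receptor genes, by the moderated F test over the differences between the 4 within-line changes in limma. The adjusted p was 0.0242 for TLR4, 0.0210 for TLR6 and 0.0454 for TLR2. The change of TLR4 in KG1a and MOLM14 minus that in HL60 and U937 was 0.54 (log2), with lower values after metformin on all 3 arrays of HL60 and of U937 than on any of their controls. By pairs of lines, the TLR4 change in HL60 differed from that in KG1a by -0.58 and from that in MOLM14 by -0.62. Both of these TLR4 calls were lost with each array centred on its median. The TLR6 change in HL60 exceeded that in KG1a by 0.69, that in MOLM14 by 0.65 and that in U937 by 0.77. The TLR6 call for HL60 minus MOLM14 held in 18 of 32 alternative settings. The TLR2 change in MOLM14 exceeded that in U937 by 0.74 (limma adjusted p = 0.0418), a call that also held in 18 of 32 and was lost with no filter on low signals (adjusted p up to 0.114 in limma). The test for an outlying value within a group needs at least 4 samples and was not run on groups of 3.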

How the results depend on the processing

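Of 2087 values recomputed for 64 results, 2015 kept their direction and their side of the threshold, or for counts stayed within 1.5 times. All 14 results that answer a comparison did so under quantile normalization, centred arrays, both other filters and the mean of all rows. They also did so under moderation with a trend, under the replicate block and without the 3 arrays that stand apart. Fits of the compared arrays alone did not cover the mean of 4 lines or the differences of response between lines. The remaining results did so there too. Among fits that left out 1 array, the TLR4 change ranged from -0.14 to 0.051 in KG1a and from -0.047 to 0.062 in MOLM14, passing in none, and from -0.70 to -0.51 in HL60 and -0.59 to -0.39 in U937, passing in all. The count of receptor genes called in MOLM14 ranged from 0 to 1, and it was 0 without MOLM14 control B. The F statistic for different TLR4 responses ranged from 5.68 to 8.18, and the count of genes called there from 0 to 3, with 0 without HL60 metformin C and 1 without HL60 control B. The cause was not tested. In all, 39 values changed sign, the largest being 0.12 in size and the smallest adjusted p 0.562 (limma). For HL60 quantile normalization gave 0.0068 for TLR1, -0.12 for TLR2, -0.053 for TLR3 and 0.033 for TLR5, and centred arrays gave 0.023 for TLR5. Without the 3 arrays that stand apart TLR5 changed by 0.073 in HL60, and TLR1 by 0.090 in U937 and 0.019 on the mean of 4 lines. Leaving out 1 array, the ranges that crossed 0 were -0.11 to 0.019 (TLR1 in HL60), -0.071 to 0.042 (TLR1 in U937), -0.048 to 0.0019 (TLR1, mean), -0.064 to 0.096 (TLR2 in HL60), -0.21 to 0.10 (TLR2 in KG1a), -0.085 to 0.091 (TLR3 in KG1a), -0.18 to 0.073 (TLR5 in HL60), -0.082 to 0.15 (TLR5 in MOLM14), -0.018 to 0.048 (TLR5, mean), -0.099 to 0.15 (TLR6 in KG1a), -0.084 to 0.0091 (TLR6 in U937) and -0.17 to 0.034 (TLR9 in KG1a). The TLR9 class difference in untreated cells ranged from -0.13 to 0.053. The share of higher genes among all called in HL60 was 61.9%, against 45.4% after quantile normalization and 72.4% with centred arrays, while the median change of all genes moved by less than 0.1. Pairing of the arrays by replicate letter was weak. Correlations of deviations of same-lettered arrays lay between -0.062 and 0.15, and 1 of 12 was over 0.1. Of the 12, 6 correlated best with their own letter, among them all 3 of HL60 (r of 0.062, 0.072 and 0.15). With the replicate block TLR4 passed in HL60 (limma adjusted p = 0.000926) and in U937 (limma adjusted p = 0.00712). Signals under 4.02 limit what can be seen of TLR4 in KG1a and MOLM14.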

Other observations

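On chromosome 4, 4 tested genes besides TLR6 lay within 100000 bases of TLR10, TLR1 or TLR6, and 2 of them rose in HL60. There 15.5% of all genes rose, and the neighbourhood was not tested against other regions. TMEM156, a transmembrane protein gene within this distance of TLR6 only, rose by 0.78 ± 0.13 (log2, SE, limma adjusted p = 7.32e-05). KLF3, a zinc finger repressor gene within it of TLR1 and TLR10 but not TLR6, rose by 0.59 ± 0.12 (limma adjusted p = 0.00110). TLR1, which lies between KLF3 and TLR6, changed by -0.050 ± 0.10, and the microRNA gene MIR574 by 0.077 ± 0.12, and neither passed. In the other lines neither TMEM156 nor KLF3 passed, with changes of 0.13 to 0.33 for TMEM156 and 0.036 to 0.26 for KLF3. These neighbours were looked up after the change of TLR6 was seen.

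Around TLR9 on chromosome 3, WDR82, a subunit of a histone methylation complex, fell in HL60 by 0.24 ± 0.072 (limma adjusted p = 0.0157) and in U937 by 0.21 ± 0.072 (limma adjusted p = 0.0447). On the mean of 4 lines it fell by 0.14 ± 0.036, beside a fall of 0.25 ± 0.08 for TLR9. The genes POC1A, GLYCTK and MIRLET7G within the same distance did not pass in any line.

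PRPS2, the neighbour of TLR7 and TLR8 on chromosome X, which makes a precursor of nucleotides, fell by 0.20 ± 0.05 on the mean of 4 lines (limma adjusted p = 0.00212), while TLR7 and TLR8 lay under 4.02 in all groups.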
